A study of Rattus norvegicus with 26 samples.

Results

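The lysosomal cathepsins described here are 9 proteases of the degradative compartment of the cell, encoded by Ctsl, Ctsd, Ctsb, Ctss, Ctsk, Ctsz, Ctsh, Ctsc and Ctsa. They were chosen by gene symbol from the 32883 genes of the deposited count table, and all 9 were found there and were among the 17990 genes tested. Their Ensembl identifiers in the table are ENSRNOG00000018566 (Ctsl), ENSRNOG00000020206 (Ctsd), ENSRNOG00000010331 (Ctsb), ENSRNOG00000021157 (Ctss), ENSRNOG00000021155 (Ctsk), ENSRNOG00000050697 (Ctsz), ENSRNOG00000014064 (Ctsh), ENSRNOG00000016496 (Ctsc) and ENSRNOG00000015857 (Ctsa). Their transcripts were measured by poly(A) RNA sequencing in 5 mm segments of rat spinal cord around a T10 compression lesion. All animals were wild-type female Sprague-Dawley rats labelled as post natal day 70, with a body weight of 250 g at injury. The clip compressed the cord with 60 g for 1 min. Mesenchymal stem cells from human umbilical cord (hUC-MSCs) or the vehicle PBS were given intrathecally 7 days after the injury. The 8 groups were Intact (4 libraries from intact or sham rats without compression), sub-SCI (3 libraries from injured rats on the day of transplantation), injured rats given PBS (+PBS-1w, 3; +PBS-2w, 2; +PBS-4w, 4) and injured rats given hUC-MSCs (+MSC-1w, 3; +MSC-2w, 3; +MSC-4w, 4), taken 1, 2 or 4 weeks post transplantation (wpt). The study's methods describe daily cyclosporin A for the rats, an immunosuppressant against rejection of the human cells. They count 2 repeats for +MSC-2w where the sample labels give 2 for +PBS-2w, and the labels were followed.

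Cathepsins are made as inactive precursors, carried to the lysosome mainly by the mannose 6-phosphate pathway and activated by cleavage in its acidic interior. Most belong to the papain-like cysteine proteases, while cathepsin D is an aspartic protease and cathepsin A a serine carboxypeptidase. In nervous tissue they are most abundant in microglia and in macrophages that enter after damage, cells that digest myelin and other debris, but every cell with lysosomes carries some of them. Cystatins, held in the cytosol or secreted, block the cysteine cathepsins that escape the compartment.

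Total counts per library lay between 19496602 and 43468509, and the counts of a single cathepsin in a single library between 47 for Ctsk in an Intact library and 219702 for Ctsb in a sub-SCI library, so counting error was small beside the spread between animals. The libraries labelled as replicate 1 stood apart. In each of the 8 groups replicate 1 gave the top value for the same 337 of 17990 genes and the bottom value for the same 81, and none of the 9 cathepsins was among these. Ctsc was lower in replicate 1 than in the mean of the other replicates in 7 of 8 groups, by 0.29 on the log2 scale on average. Ctsl and Ctsk were lower there in 6 of 8 groups (by 0.14 and 0.25 on average), and Ctsb and Ctss were higher in 6 of 8 (0.12 and 0.14). Levels below are in CPM, counts scaled to the library size with TMM factors. A differentially expressed gene (DEG) had an adjusted p under 0.01 and an absolute log2 fold change above 1 in edgeR's quasi-likelihood test, and a second call used an adjusted p under 0.05 with no minimum change. Adjustment was over all genes tested.

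The first comparison asked how the cathepsins stood in the injured cord before any treatment. All 9 were higher in sub-SCI than in Intact, by between 1.84 and 4.19 on the log2 scale, and all 9 were DEGs. Of all genes tested 16.6% were higher DEGs and 17.5% were lower DEGs in this comparison, and 0 of 9 cathepsins were lower. The median log2 fold change of the 9 was 3.35, beside -0.018 for all genes tested. Together the 9 genes took 0.166% ± 0.017 of all counts in Intact (SD, n = 4) and 1.72% ± 0.17 in sub-SCI (SD, n = 3). In bulk tissue a change in the number of cells that express a gene and a change in its RNA per cell cannot be told apart.

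**Figure D1:**
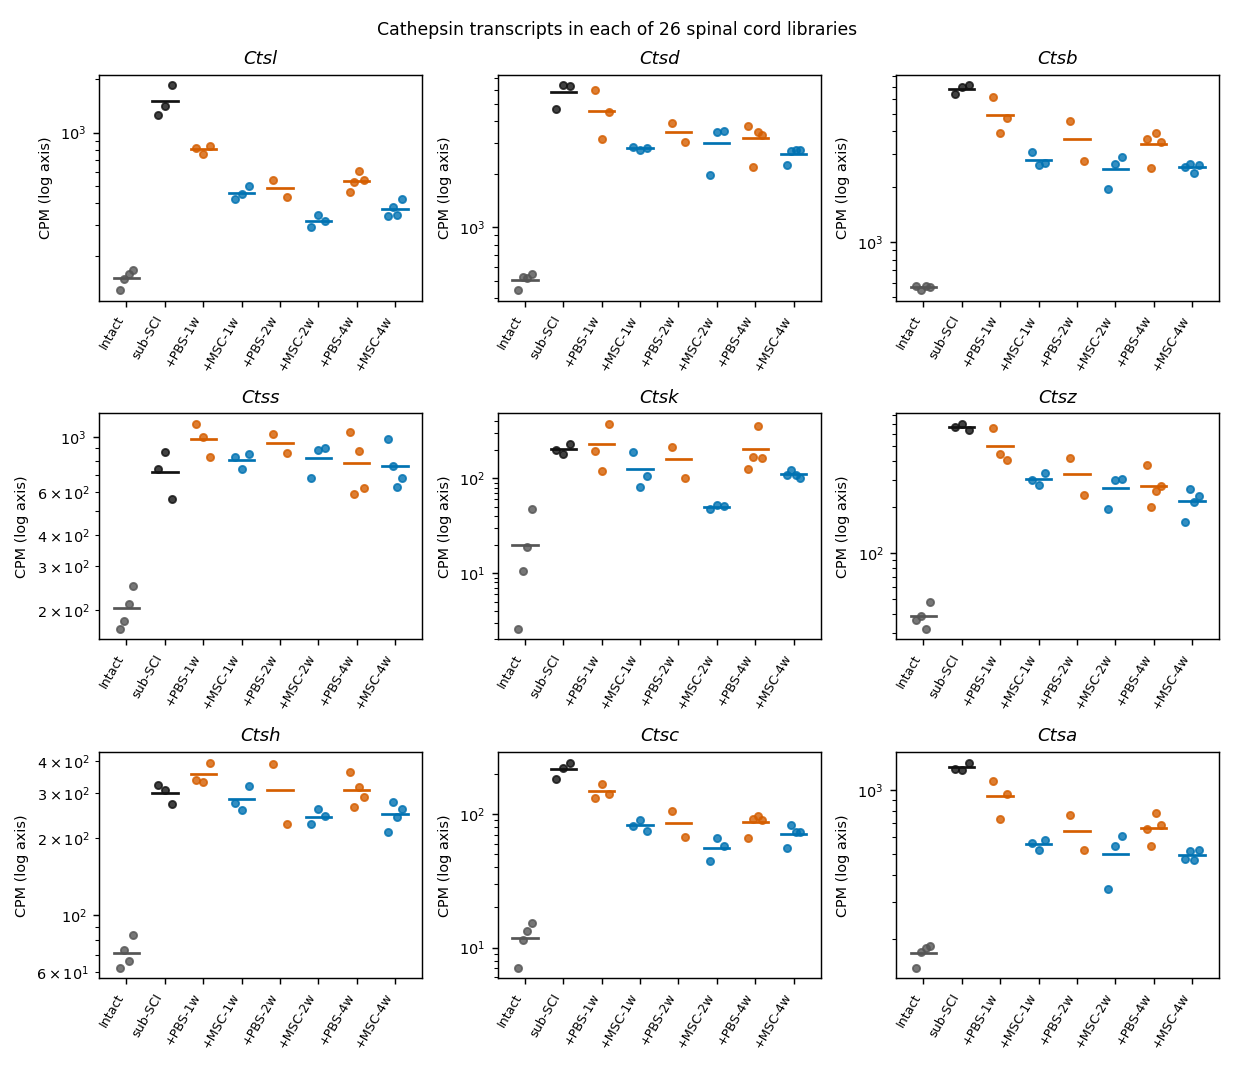
Level of each cathepsin in every library, in CPM on a log axis, by group. Points are libraries and bars are group means (grey Intact, black sub-SCI, orange +PBS, blue +MSC). For 8 of the 9 genes every injured library lies above every Intact library. In Ctsk the highest Intact library, at 47.9 CPM, reaches the lowest +MSC-2w library.

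Among the endopeptidases, which cut inside protein chains, Ctsb and Ctsd were the most abundant. Ctsb, encoding a cysteine protease that also trims dipeptides from carboxyl ends, stood at 573, 544, 573 and 569 CPM in the Intact libraries and at 6386, 6994 and 7184 CPM in the sub-SCI libraries. Ctsd, encoding the main lysosomal aspartic protease, stood at 440.2, 525, 520.0 and 541 CPM in Intact and at 4659.7, 6412 and 6349 CPM in sub-SCI. In both genes the libraries of the groups were far apart, with more than a factor of 8 between the highest Intact and the lowest sub-SCI library. The log2 fold change was 3.60 ± 0.19 (SE) for Ctsb and 3.52 ± 0.23 for Ctsd (adjusted p = 5.76e-12 and 6.40e-11).

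Ctsl encodes cathepsin L, a cysteine endopeptidase of broad specificity that also processes other cathepsins. It was at 128, 149, 158 and 166 CPM in Intact and at 1264, 1415 and 1863 CPM in sub-SCI. No libraries of the groups overlapped, and the log2 fold change was 3.33 ± 0.14 (adjusted p = 3.97e-13). Ctss encodes cathepsin S, which cleaves the invariant chain of MHC class II and stays active at neutral pH. Its values were 167, 181, 212 and 250.3 CPM in Intact and 744, 866 and 561 CPM in sub-SCI. This was the smallest rise of the 9, with a log2 fold change of 1.84 ± 0.20 (adjusted p = 1.26e-07), and its interval of 1.41 to 2.26 did not meet that of Ctsl, 3.04 to 3.62.

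Ctsk encodes cathepsin K, the collagen-degrading protease best known from osteoclasts and also made by fibroblasts. It was at 2.56, 10.4, 19.1 and 47.9 CPM in the Intact libraries and at 201, 182 and 232 CPM in sub-SCI. The Intact libraries differed among themselves by more than 10 times, the widest spread of any of the 9 genes in that group, and all lay below the sub-SCI libraries. The log2 fold change of 3.35 had the largest standard error, 0.59 (adjusted p = 4.24e-05).

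The exopeptidases, which take residues from the ends of chains, included the genes that rose most. Ctsc encodes dipeptidyl peptidase I, the activator of the granule serine proteases of leukocytes, and went from 7.04, 11.4, 13.3 and 15.2 CPM in Intact to 182, 221 and 242 CPM in sub-SCI. Ctsz encodes cathepsin Z, a carboxypeptidase, and went from 36.7, 38.5, 31.7 and 47.7 CPM to 668, 705 and 639.6 CPM. Ctsh encodes an aminopeptidase and went from 62.2, 73.4, 66.2 and 83.4 CPM to 322, 309.5 and 271 CPM. The log2 fold changes were 4.19 ± 0.23 for Ctsc, 4.12 ± 0.25 for Ctsz and 2.08 ± 0.16 for Ctsh, each a DEG, so that Ctsh lay with Ctss at the low end and the other pair at the top. Ctsa encodes cathepsin A, a serine carboxypeptidase that also holds beta-galactosidase and neuraminidase in a stable complex. It rose from 146, 173, 181 and 186 CPM to 1258, 1241 and 1348 CPM, a log2 fold change of 2.90 ± 0.18.

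Promoter sequence was read for Ctsd, Ctsl and Ctss, which are shown because Ctsd alone held the motif searched, Ctsl fell most after sub-SCI and Ctss had no fall that passed. The windows are the 250 bases before the annotated start of each gene (RefSeq, build GRCr8), 5′ to 3′ on the gene's strand, and capitals mark CACGTG, the E-box that forms the core of the element bound by TFEB, the transcription factor of lysosomal genes. The Ctsd window is chr1:206968822-206969071 on the minus strand, the Ctsl window chr17:769854-770103 on the plus strand and the Ctss window chr2:185775146-185775395 on the plus strand.
Ctsd: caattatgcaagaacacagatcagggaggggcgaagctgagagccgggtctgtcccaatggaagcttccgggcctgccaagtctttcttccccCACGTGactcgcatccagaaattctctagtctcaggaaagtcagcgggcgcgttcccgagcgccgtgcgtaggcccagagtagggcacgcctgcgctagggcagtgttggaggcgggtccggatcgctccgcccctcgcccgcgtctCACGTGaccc
Ctsl: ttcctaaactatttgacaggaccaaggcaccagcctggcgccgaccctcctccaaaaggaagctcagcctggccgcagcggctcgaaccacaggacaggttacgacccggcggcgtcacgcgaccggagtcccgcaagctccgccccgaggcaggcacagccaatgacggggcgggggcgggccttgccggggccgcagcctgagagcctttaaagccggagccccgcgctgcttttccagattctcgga
Ctss: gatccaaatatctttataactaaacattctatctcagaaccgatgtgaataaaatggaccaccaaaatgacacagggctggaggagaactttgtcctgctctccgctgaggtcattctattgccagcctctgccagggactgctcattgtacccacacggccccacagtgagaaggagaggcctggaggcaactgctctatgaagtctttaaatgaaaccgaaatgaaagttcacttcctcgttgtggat
The search covered 300 bases for each gene, 250 before to 50 after the start, on both strands, which read the same for this palindrome. RefSeq gave a window for 8 of the 9 genes (all but Ctsb). CACGTG was found in 1 of 8, Ctsd, at positions -157 and -10, and in 6.42% of the 33469 windows of all genes. The longer TCACGTGA, which contains the second of these hits and starts at -11, was in 1 of 8 and in 0.777% of all windows. The log2 fold change in sub-SCI was 3.52 for Ctsd, the gene with the motif. In the searched genes without it the log2 fold change lay between 1.84 (Ctss) and 4.19 (Ctsc). A link between the motif and the change was not tested. In the same gene table Ctsk and Ctss are near neighbours on chromosome 2, with 1 protein-coding model between them.

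The next comparison followed the injured cord under vehicle alone. All 9 cathepsins were higher DEGs against Intact at 1, 2 and 4 wpt in the +PBS groups, where 13.5%, 8.84% and 13.3% of all genes were. The median log2 fold change of the 9 was 3.13 at 1 wpt, 2.69 at 2 wpt and 2.59 at 4 wpt. From sub-SCI to +PBS-4w, 6 of 9 fell at an adjusted p under 0.05 (11.6% of all genes fell), and 4 of these, Ctsl, Ctsb, Ctsz and Ctsc, were lower DEGs (3.09% of all genes). Ctss, Ctsk and Ctsh did not pass, with differences near 0. These comparisons share the Intact or sub-SCI libraries and are not independent of each other.

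**Figure D2:**
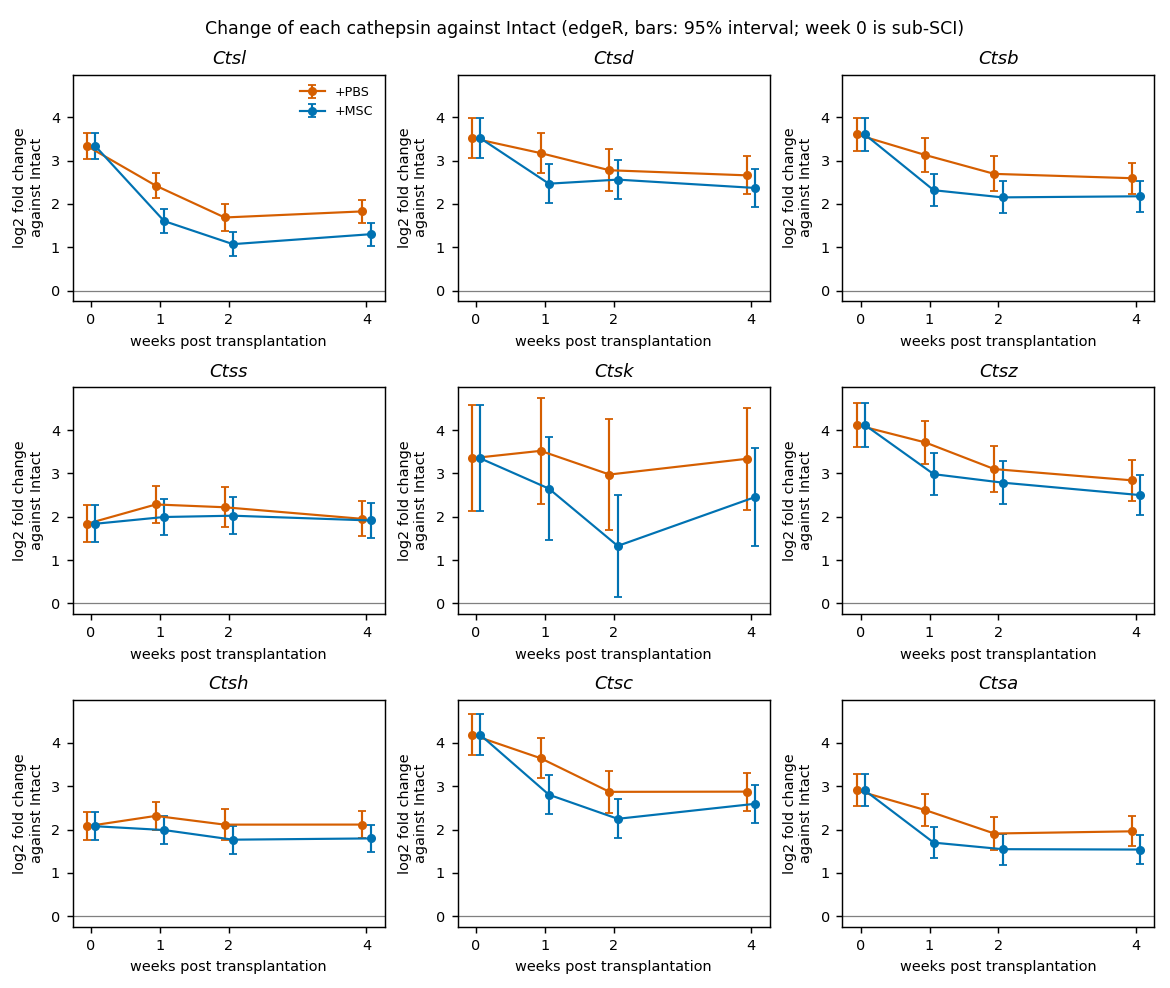
Log2 fold change of each cathepsin against Intact by weeks post transplantation, where week 0 is sub-SCI (the same value in both lines), with 95% intervals from edgeR. Orange is +PBS and blue is +MSC. Ctsl goes from 3.33 at week 0 to 1.83 in +PBS and 1.30 in +MSC at 4 wpt, while Ctss lies between 1.84 and 2.28 throughout.

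Ctsl fell most. Its +PBS libraries were at 812, 758 and 838 CPM at 1 wpt, 536 and 429.8 CPM at 2 wpt and 461, 525, 603 and 540.0 CPM at 4 wpt, all below the lowest sub-SCI library and above the highest Intact library. Between sub-SCI and +PBS-4w the log2 difference was -1.51 ± 0.13 (adjusted p = 4.82e-07). Ctsc, at 132, 168 and 142 CPM, 105 and 67.5 CPM and 65.6, 92.2, 97.0 and 90.7 CPM, and Ctsz, at 666, 446 and 410.0 CPM, 421 and 241 CPM and 376, 199, 256 and 276 CPM, fell by 1.31 and 1.28 on the log2 scale over the same interval. In these 3 genes, and also in Ctsb, Ctsd and Ctsa, all +PBS-4w libraries lay below all sub-SCI libraries. The share of all genes with this separation was not counted.

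The abundant pair fell less. Ctsb stood at 6143, 3916 and 4731 CPM at 1 wpt, 4550.1 and 2746 CPM at 2 wpt and 3630.2, 2529, 3936 and 3519.6 CPM at 4 wpt, and fell by 1.01 on the log2 scale from sub-SCI to 4 wpt (adjusted p = 0.000308). Ctsd stood at 6029.5, 3161 and 4497 CPM, 3904 and 3033 CPM and 3764, 2211, 3472 and 3338 CPM and fell by 0.86 (adjusted p = 0.00516). The 1 wpt libraries of both genes were widely spread, and replicate 1 was the highest of them. Ctsa fell by 0.94, from the sub-SCI values above to 655, 547, 778 and 687 CPM at 4 wpt (adjusted p = 0.000442).

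Ctss and Ctsh did not pass between sub-SCI and +PBS-4w. Ctss was at 1132, 996 and 829 CPM at 1 wpt, 1024 and 861 CPM at 2 wpt and 1048, 587, 877 and 619.5 CPM at 4 wpt, overlapping with the sub-SCI libraries at each week. Ctsh was at 338, 332 and 395 CPM, 391 and 227 CPM and 363, 265, 318 and 289.7 CPM, above its sub-SCI values at 1 wpt and on both sides of them at 2 and 4 wpt. The intervals of the difference between +PBS-4w and sub-SCI were -0.31 to 0.54 for Ctss and -0.28 to 0.36 for Ctsh, and the sign of each turned when replicate 1 of every group was left out (-0.081 and -0.037). Neither interval reached the log2 difference of Ctsl. Ctsk was at 195, 120.5 and 377 CPM, 215 and 101 CPM and 126, 166, 358 and 163 CPM. One library at 1 wpt and one at 4 wpt were more than 1.5 times above the others of their group, and the interval for Ctsk, -1.17 to 1.15, was too wide to tell a fall like that of Ctsb from none.

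Ordered by mean level over the 8 groups, sub-SCI was highest in 6 genes (Ctsl, Ctsd, Ctsb, Ctsz, Ctsc and Ctsa) and +PBS-1w in 3 (Ctss, Ctsk and Ctsh). Intact was lowest in all 9. Most neighbours in these orders did not differ beyond their spread. Of 63 neighbouring pairs of groups, 10 passed an adjusted p under 0.05. In 8 genes one of them was the step from the lowest injured group to Intact. The other pair of steps were both of Ctsl, from sub-SCI down to +PBS-1w (log2 difference 0.92, adjusted p = 0.00392, in a contrast that called 2.84% of all genes in either direction) and from +PBS-1w down to +PBS-4w (0.59, adjusted p = 0.0285, 1.8% of all genes). The first passed with the replicate number as a block (0.90, adjusted p = 0.00189) and without any 1 library. The second was above the threshold without +PBS-1w replicate 1 or 2, without +PBS-4w replicate 2 or 4 (adjusted p of 0.0550 to 0.133) and without replicate 1 of every group (0.0524), at log2 differences of 0.54 to 0.63 in these fits. Steps of other genes passed in some alternatives. Without replicate 1 of every group the step from sub-SCI to +PBS-1w passed also in Ctsd, Ctsb, Ctsz, Ctsc and Ctsa (log2 differences of 0.59 to 0.76), in a fit that called 6.95% of all genes there. The step from +PBS-1w to +PBS-4w passed in Ctsc in that fit (0.76), with the block (0.84) and without Intact replicate 1 or +MSC-4w replicate 1. In Ctsk no neighbouring pair passed, and +MSC-2w, its lowest injured group, was not told apart from Intact (adjusted p = 0.105), except with the block (1.79, adjusted p = 0.0370) or without Intact replicate 4.

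The comparison of +MSC with +PBS at the same week asked what transplantation changed. All 9 cathepsins had lower fitted values in +MSC at each of 1, 2 and 4 wpt, where 50.2%, 49.7% and 54.5% of all genes did. Single weeks called few of the 9. With the 3 weekly differences averaged, 8 of 9 were lower in +MSC at an adjusted p under 0.05 and none was higher, where 10.9% of all genes were lower and 12.3% higher. The count was 4 without +PBS-2w replicate 1 and 5 without replicate 1 of every group. The shares of all genes called in these reduced fits are not given here. The median of the 9 averaged differences was -0.51 on the log2 scale, beside -0.017 for all genes tested. None was a DEG in this average (0.956% of all genes were lower DEGs), since Ctsk, the only gene past the fold limit at -1.13, had an adjusted p of 0.0223.

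**Figure D3:**
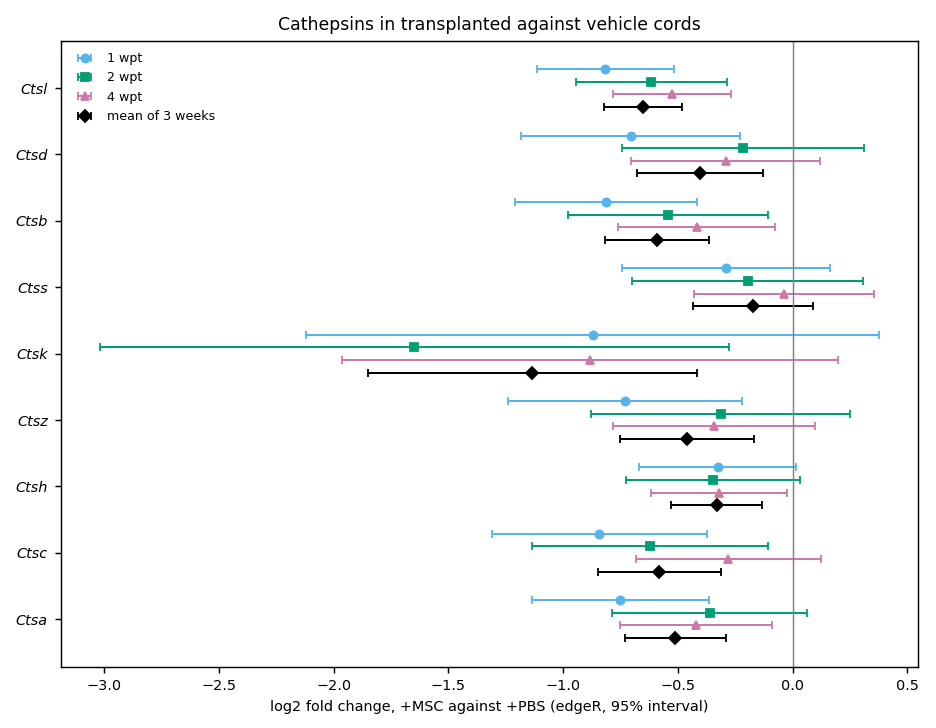
Log2 fold change of +MSC against +PBS for each cathepsin at 1, 2 and 4 wpt and for the mean of the 3 weekly differences, with 95% intervals from edgeR. All points lie to the left of 0, and the interval of the mean (black diamonds) reaches 0 in Ctss alone.

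At 1 wpt the fitted values were lower in +MSC by between 0.29 (Ctss) and 0.87 (Ctsk) on the log2 scale. Ctsl passed an adjusted p under 0.05 (0.0297, 0.0611% of all genes lower), none was a DEG (0.0111% of all genes lower), and 6 of 9 were lower at an unadjusted p under 0.05 (7.34% of all genes). In 7 of 9 genes, all but Ctss and Ctsk, every +MSC library lay below every +PBS library, as in 11.6% of all genes. Among the alternative fits, the share of all genes called is given for those with DESeq2 alone. The count at an adjusted p under 0.05 rested on the fit. It was 5 with DESeq2 on all libraries, which called 2.32% of its genes lower, 6 with DESeq2 on these 2 groups, which called 4.27%, and 0 with edgeR on these 2 groups, and it fell to 0 without any 1 of the 3 +MSC-1w libraries or without +PBS-1w replicate 1 or 3. In these single-library fits the log2 fold change of Ctsl lay between -0.89 and -0.76, beside -0.82 with all libraries. Without replicate 1 of every group, Ctsl did not pass (-0.75, adjusted p = 0.0548) and Ctsc did (-0.91, adjusted p = 0.0369). The count rose to 4 without +PBS-4w replicate 1, to 3 without +PBS-1w replicate 2 and to 2 without sub-SCI replicate 3, +MSC-2w replicate 1 or either +PBS-2w library.

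At 2 wpt no cathepsin was a DEG or passed an adjusted p under 0.05 in edgeR. Of all genes tested 0% passed, and the smallest adjusted p was 0.159. At an unadjusted p under 0.05, 4 of 9 cathepsins were lower (6.84% of all genes). At an adjusted p under 0.05, DESeq2 on all libraries called 1 (Ctsl) and 0.67% of its genes lower, and DESeq2 on the 2 groups called 2 (Ctsl and Ctsk) and 4.19% of its genes lower. In Ctsl, Ctsk and Ctsc every +MSC library lay below every +PBS library (18.4% of all genes), a weak criterion with 3 libraries against 2. Both 2 wpt groups were uneven in a way that touched the cathepsins. The +PBS-2w replicate 1 was higher than replicate 2 in all 9 genes, and +MSC-2w replicate 1 was the lowest of its group in all 9. Without replicate 1 of every group the sign turned in 6 of 9 genes (Ctsd, Ctsb, Ctss, Ctsz, Ctsh and Ctsa).

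At 4 wpt Ctsl again passed an adjusted p under 0.05 (0.0202, 0.928% of all genes lower), none was a DEG (0% of all genes lower), and 4 of 9 were lower at an unadjusted p under 0.05 (11.3% of all genes). Every +MSC library lay below every +PBS library in Ctsl, Ctsk and Ctsa, as in 4.47% of all genes. The adjusted p of Ctsl was above 0.05 without +PBS-4w replicate 2 or 3, without +MSC-4w replicate 1 or 3 and with edgeR on these 2 groups, up to 0.128, while its log2 fold change stayed between -0.62 and -0.46 in all alternatives tried.

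Ctsl was the only cathepsin in which every +MSC library lay below every +PBS library at each of the 3 weeks, which 0.834% of all genes did. Its +MSC libraries were at 419, 449 and 500.0 CPM at 1 wpt, 292, 339 and 314 CPM at 2 wpt and 338, 381, 339 and 420.3 CPM at 4 wpt, against the +PBS values given above. The averaged difference was -0.65 ± 0.082 (adjusted p = 0.000130), and it passed in all 34 alternative fits, where it ranged from -0.70 to -0.57. All 10 +MSC libraries remained above the 4 Intact libraries, whose highest value was 166 CPM.

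Of the other cysteine endopeptidases, Ctsb was at 3096, 2630.5 and 2701 CPM, 1951, 2664 and 2901 CPM and 2548, 2655, 2384 and 2609.9 CPM in the +MSC groups at 1, 2 and 4 wpt. The 1 wpt libraries did not overlap with those of +PBS, while the 2 and 4 wpt libraries did. Its averaged difference was -0.59 ± 0.11 (adjusted p = 0.00119). Ctsk was at 190.4, 81.3 and 107 CPM, 47.0, 52.8 and 51.5 CPM and 109, 123, 109 and 100.1 CPM. The +MSC-2w libraries were close together and near the highest Intact library, and the averaged difference of -1.13 ± 0.34 was the largest of the 9 and the least certain. Its adjusted p was 0.113 without +PBS-2w replicate 1 and 0.0625 without +PBS-1w replicate 3.

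Ctss did not pass in the average. Its +MSC libraries stood at 828, 742 and 849 CPM, 683, 883 and 904 CPM and 978, 764, 629 and 682 CPM, overlapping with +PBS at every week. The averaged difference was -0.17 with an interval of -0.43 to 0.087 (adjusted p = 0.341), and it passed in 0 of 34 alternative fits. The interval overlapped with those of 7 of the other 8 genes, all but Ctsl (-0.82 to -0.48), and a difference between Ctss and the others in the response to transplantation was not tested.

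Among the others, Ctsc (-0.58 ± 0.13, adjusted p = 0.00384) and Ctsa (-0.51 ± 0.11, adjusted p = 0.00256) passed in the average and in all 34 alternative fits, as Ctsb did. Ctsc stood at 81.5, 90.6 and 74.6 CPM at 1 wpt, 44.2, 65.9 and 57.7 CPM at 2 wpt and 55.7, 82.0, 73.2 and 73.6 CPM at 4 wpt in +MSC, and its fitted difference to +PBS was widest at 1 wpt. Ctsa stood at 563, 523 and 584 CPM, 342, 549.5 and 612 CPM and 477, 521, 472 and 524 CPM. In +MSC, Ctsd stood at 2842, 2745 and 2808 CPM, 1983, 3462 and 3511 CPM and 2267, 2716, 2728 and 2738 CPM, and only its 1 wpt libraries lay wholly below those of +PBS.

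For Ctsz the +MSC libraries spanned 279.9 to 334 CPM at 1 wpt, 195 to 306 CPM at 2 wpt and 159.9 to 262 CPM at 4 wpt, and for Ctsh 257 to 319, 227 to 259 and 212 to 277 CPM. In both, as in Ctsd, the groups were apart at 1 wpt and overlapped at 2 and 4 wpt. Ctsd (-0.40, adjusted p = 0.0309), Ctsz (-0.46, adjusted p = 0.0223) and Ctsh (-0.33, adjusted p = 0.0164) were also lower, but without replicate 1 of every group they were -0.14, -0.065 and -0.12 and no longer passed, in a fit that rests on a single +PBS-2w library. Ctsd also missed the threshold without any 1 of +MSC-1w replicate 2, +MSC-2w replicate 1, +MSC-4w replicate 1, +PBS-1w replicate 1 and +PBS-2w replicate 1 (adjusted p of 0.0506 to 0.126). Ctsz missed it without +MSC-2w replicate 1, +PBS-1w replicate 1 or +PBS-2w replicate 1 (0.0507 to 0.160), and Ctsh without +PBS-2w replicate 1 (0.151).

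The size of the difference was not shown to change between weeks. For none of the 9 genes did the difference at 2 wpt differ from that at 1 wpt, that at 4 wpt from 1 wpt, or that at 4 wpt from 2 wpt at an adjusted p under 0.05 in edgeR or DESeq2 (0% of all genes in each of these 3 tests with edgeR), and 0 of 9 had an unadjusted p under 0.05, where 2.67%, 3.9% and 2.3% of all genes had. The intervals were wide. For Ctsc, with the largest shift from 1 to 4 wpt, the difference moved by 0.56 with an interval of -0.053 to 1.18.

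Against Intact, all 9 cathepsins were still higher DEGs in +MSC-1w (7.87% of all genes) and in +MSC-4w (7.25%), and 8 of 9 were in +MSC-2w (5.6%). The exception at 2 wpt was Ctsk, with a log2 fold change of 1.33 and an interval of 0.16 to 2.50 (adjusted p = 0.105), which became 2.23 and passed without Intact replicate 4, the Intact library highest in Ctsk. Over all injured groups together, every injured library lay above every Intact library in 8 of 9 genes, all but Ctsk, and in 10.3% of all genes.

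Levels were compared between genes after division by the gene length in the count table. On this scale of CPM per kilobase Ctsb (291 ± 7.05, SD, n = 4) and Ctsd (251 ± 22.4) led in Intact, followed by Ctss (205 ± 37.4), and Ctsc was lowest (6.26 ± 1.87). The sum over the 9 genes was 1003 ± 96.3 in Intact, 9546 ± 833 in sub-SCI, 5313 ± 933 in +PBS-4w and 4239 ± 166 in +MSC-4w. Ctss gave 20.3% ± 1.79 of that sum in Intact and 7.71% ± 1.80 in sub-SCI. Ctsb went the other way, from 29.2% ± 2.87 to 37.0% ± 1.16, and Ctsz from 2.85% ± 0.383 to 5.22% ± 0.526. In +PBS-4w the share of Ctss was 14.8% ± 2.38 and in +MSC-4w 18.2% ± 3.69, nearer to Intact than to sub-SCI. The share of Ctsl was 9.10% ± 0.318 in Intact, 9.62% ± 1.45 in sub-SCI, 6.25% ± 1.33 in +PBS-4w and 5.30% ± 0.446 in +MSC-4w. In sub-SCI Ctsl ranked above Ctss, and in the other 7 groups Ctss ranked above Ctsl. The relation between the genes of the table and the transcripts present was not resolved, so these per-length levels are approximate.

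**Figure D4:**
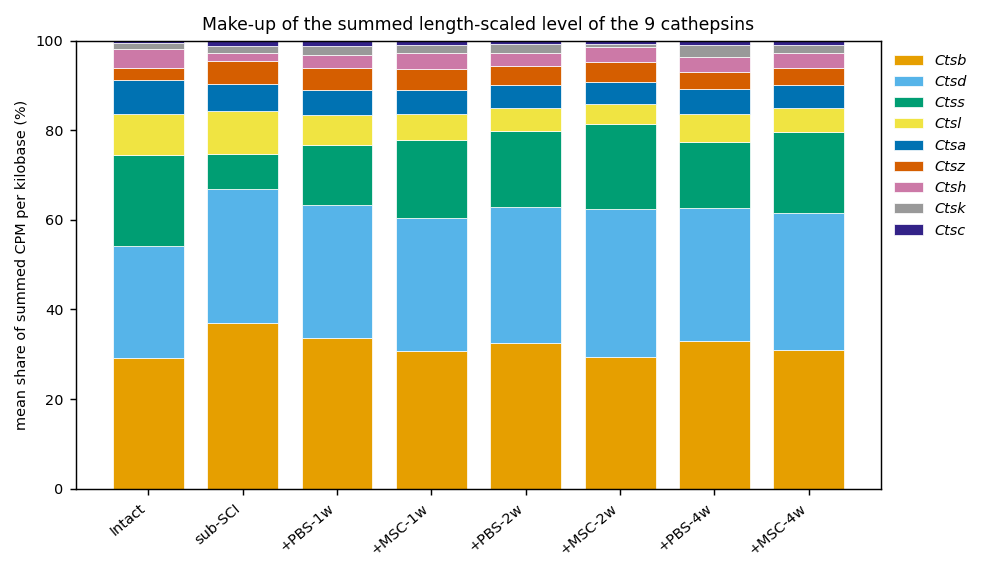
Mean share of each cathepsin in the summed CPM per kilobase of the 9 genes, by group, in percent (stacked to 100). Ctsb and Ctsd together make up the larger part of the sum in every group, and the share of Ctss falls from 20.3% in Intact to 7.71% in sub-SCI and is above 13% in all later groups.

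Some of the 9 genes formed pairs by their log2 fold changes against Intact over the 7 injured groups. The mean absolute difference was 0.13 between Ctss and Ctsh, 0.15 between Ctsd and Ctsb and 0.17 between Ctsz and Ctsc, and it was largest, 1.26, between Ctsl and Ctsz. By the same measure over all genes tested, the genes most like Ctsl were Ninj1, Gpx7 and Nabp1 (0.11 to 0.12), and those most like Ctsb were Ugt1a3, Syk, the kinase of immune receptor signalling, and Tnfaip8l2 (0.049 to 0.083). Those most like Ctsd were Plcb2, Ptprc, which encodes the leukocyte antigen CD45, and AABR07054266.1 (0.077 to 0.091). Those most like Ctsz included Myo1f (0.080) and the myeloid transcription factor Cebpa (0.13), and those most like Ctsc were Clec4a3, the lysosomal nuclease gene Dnase2 and Clec4a1 (0.088 to 0.13). Ctss and Ctsh shared Dapp1 and LOC100912564, with LOC102549869 for Ctss and Cdkn2b for Ctsh (0.083 to 0.13). For Ctsa they were AABR07002945.1, Ctrc and Fhl3 (0.071 to 0.093). Ctsk had no gene as close, with Fxyd2, Tspan10 and Anxa1 at 0.22 to 0.23. The 7 fold changes share the Intact libraries, and likeness on 7 values is a description.

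The cathepsins can be set beside other genes of the lysosome. Of 31 gene records of other lysosomal hydrolases, 21 were higher DEGs in sub-SCI than in Intact and none was lower, with a median log2 fold change of 1.64. They ran from Gla, alpha-galactosidase (-0.18, adjusted p = 0.143), to Dnase2 (4.03). Of 17 lysosomal membrane and activator proteins 8 were higher DEGs (median 0.87), from Mcoln1, a calcium channel (-0.36), to Cd68, a macrophage lysosomal glycoprotein (7.41). Of 17 subunits of the vacuolar proton pump, which acidifies the compartment, 3 were higher and 1 was a lower DEG, with a median of -0.13. The extremes were Atp6v1a (-1.05), a subunit used widely, and Atp6v0d2 (5.13), a subunit of osteoclasts and macrophages. Of 9 sorting receptors and transcription factors of lysosomal genes 2 were higher DEGs and 1 lower (median 0.77), from the sorting receptor Sort1 (-1.15) to Igf2r, the mannose 6-phosphate receptor (1.66). The median of the 9 cathepsins, 3.35, lay above all of these medians. Both the 9 genes and the lists were chosen with earlier results of these data known, so this order is a description.

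In the averaged +MSC against +PBS difference, 16 of the 31 hydrolase records were lower at an adjusted p under 0.05 and none was higher (median -0.24), and 10 of 17 membrane and activator proteins were lower (median -0.23), against the 10.9% of all genes given above. Acp5, a phosphatase (-0.74, adjusted p = 0.217), and Gaa, acid alpha-glucosidase (0.14), were the extremes of the hydrolases, and Cd68 (-0.80, adjusted p = 0.00682) and Scarb2 (0.062) those of the membrane proteins. Of the 17 proton pump subunits 2 were lower and 2 higher (median 0.040), with Atp6v0d2 at -0.84 and Atp6v1a at 0.37. Of the 9 sorting receptors and transcription factors 2 were lower and 1 higher (median -0.15). Igf2r was the lowest (-0.50, adjusted p = 0.0229) and Sort1 the highest (0.32, adjusted p = 0.0249), each opposite to its change in sub-SCI.

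**Figure D5:**
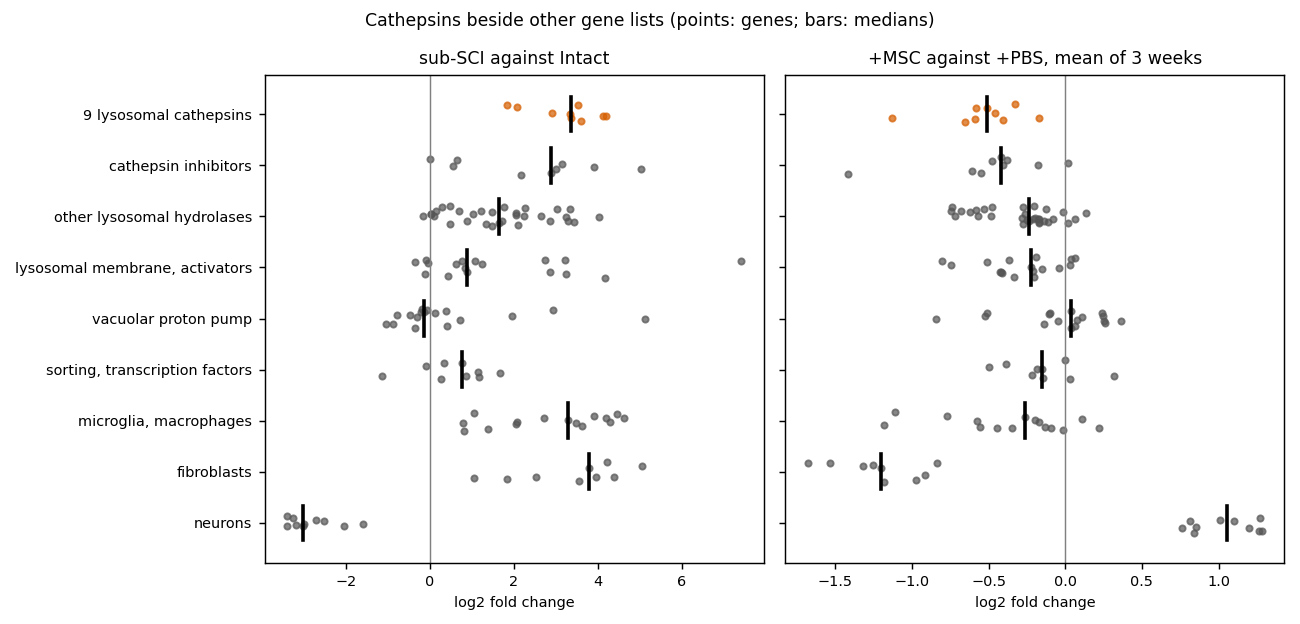
Log2 fold changes of the 9 cathepsins (orange) and of genes of other lists (grey), in sub-SCI against Intact (left) and in +MSC against +PBS averaged over 3 weeks (right). Points are genes and black bars list medians. The cathepsin median is 3.35 on the left and -0.511 on the right, while that of the proton pump subunits is near 0 in both.

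Of the 9 tested genes in a list of cathepsin inhibitors, 5 were higher DEGs in sub-SCI and none was lower (median 2.89). Which cathepsins each of them blocks was not examined. Cstb, the cytosolic cystatin B, rose by 2.17, from 49.9 ± 6.0 CPM in Intact to 225 ± 21 CPM in sub-SCI (SD, n = 4 and 3). Cst7, an endolysosomal cystatin, rose by 3.14, Serpinb1a by 3.01, Ctla2a by 2.89 and the plasma inhibitor A2m by 3.91. Cst3, the secreted cystatin C and by far the most abundant of them, differed by 0.64 (adjusted p = 0.0310) and was no DEG, at 2236 ± 117 CPM in Intact and 3494 ± 1052 CPM in sub-SCI. Kng1 (5.03, adjusted p = 0.0117) had 0 counts in some libraries, and Serpinb9 and Cst6 stood at 0.54 and -0.00079. In the averaged +MSC against +PBS difference 2 of 9 were lower at an adjusted p under 0.05 (median -0.42), Cstb (-0.38, adjusted p = 0.0178) and Ctla2a (-0.61, adjusted p = 0.0253). Cst3 stood at 0.021 there (adjusted p = 0.943).

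Other proteases with a cathepsin name were mixed. Of 4 tested, Ctsw, a protease of cytotoxic lymphocytes (3.40), and Ctse, a non-lysosomal aspartic protease (1.74), were higher DEGs in sub-SCI. Ctsf, a papain-like cathepsin outside the 9 described here, went the other way (-0.38, adjusted p = 0.0230). It was no DEG and had 3628 to 8839 counts per library. Ctsg, a neutrophil serine protease (-0.54, adjusted p = 0.697), did not pass. None of the 4 differed at an adjusted p under 0.05 in the averaged +MSC against +PBS difference (median 0.069). Of the rodent paralogs of Ctsl that are expressed in placenta, 9 were in the table and none had enough counts to be tested. Of 8 MHC class II genes, which act with cathepsin S in antigen presentation, none was a DEG in sub-SCI (median 1.93). They ran from RT1-Db1 (0.67) to RT1-DMb (3.41). At an adjusted p under 0.05, 3 of the 8 were higher. The share of all genes higher at that adjusted p is not given here. By the DEG call, 16.6% of all genes were higher in that comparison. A looser count, an unadjusted p under 0.05 in either direction, held 11695 of the 17990 genes tested and is not matched to the 3 of 8. None of the 8 passed with transplantation (median -0.17).

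Markers of the cells that carry most cathepsins were measured beside them. Of 15 microglia and macrophage markers, 12 were higher DEGs in sub-SCI (median 3.30), from P2ry12, a marker of resting microglia (0.79), to Trem2 (4.63). Their summed level lay at 433 to 796 CPM in the Intact libraries and 5077 to 5904 CPM in sub-SCI, and none of the 15 was at 0 in any library. At 1 wpt it lay at 4309 to 5579 CPM in +PBS and 2999.9 to 3138 CPM in +MSC, at 2 wpt at 3372 to 4973 and 1860.3 to 3044 CPM, and at 4 wpt at 3287 to 4598 and 2741 to 3489 CPM, so that the sums did not overlap at 1 and 2 wpt. A sum is carried by its most abundant genes. The median over the 15 genes of the log2 fold change of +MSC against +PBS was -0.55 at 1 wpt, -0.17 at 2 wpt and -0.12 at 4 wpt, and none of the 15 passed an adjusted p under 0.05 at a single week. In the averaged difference 5 of 15 were lower at an adjusted p under 0.05 (median -0.26), with Mrc1, a marker of perivascular and tissue macrophages, lowest (-1.18) and P2ry12 highest (0.22). The part of these cells in the cathepsin differences was not tested.

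Fibroblast markers also moved. All 9 were higher DEGs in sub-SCI (median 3.78, Pdgfra lowest at 1.05 and Postn highest at 5.06), and all 9 were lower in +MSC in the averaged difference at an adjusted p under 0.05 (median -1.21, from -1.68 in Col1a2 to -0.84 in Pdgfra). Their summed level was 255 to 1410.3 CPM in Intact, a spread of more than 5 times in the group where Ctsk was also most uneven, and 8216 to 19854 CPM in sub-SCI. At 2 wpt, where Ctsk differed most, it was 1921 to 2489.8 CPM in +PBS and 641 to 988 CPM in +MSC, and none of the 9 was at 0 in any library. Of 6 osteoclast markers tested 3 were higher DEGs in sub-SCI, with Acp5 highest (3.33) and Calcr, a defining marker, lowest (-2.44). Calcr had only 0 to 30 counts per library, and Dcstamp, another defining marker, had at most 1 count in any library. None of the 6 passed with transplantation (median -0.36). Acp5 is also in the list of hydrolases. The part of either cell type in the level of Ctsk was not tested.

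The other lists placed the tissue. Of 10 neuron markers 9 were lower DEGs in sub-SCI (median -3.02, from -3.40 in Rbfox3 to -1.59 in Tubb3) and 9 were higher in +MSC in the averaged difference (median 1.05), and all 10 had counts in every library. Of 8 oligodendrocyte markers 4 were lower DEGs in sub-SCI (median -1.0), and of 7 astrocyte markers 3 were (median -0.41). Neutrophil markers had 2 of 8 higher DEGs (median 0.055), with Mmp8 highest (4.57) and Mpo lowest (-0.94). Schwann cell (1 of 5) and endothelial markers (1 of 5) each had a single higher DEG, Egr2 (2.47) and Cdh5 (2.05). With transplantation none of the oligodendrocyte, neutrophil or Schwann cell markers passed, 2 of 7 astrocyte markers were higher, and Cdh5 was lower (-1.26).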

How the data were processed

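The deposited values are raw read counts per gene, not normalized. Per the labels and the study's methods, the authors trimmed 150 bp paired-end reads with Trim Galore 0.5.0, used HISAT2 2.1.0 first against GRCh38 to take out human reads and then against Rnor6 for the remaining rat reads. Proper pairs were selected with SAMtools 1.9, and featureCounts 1.6.4 gave the counts per gene. The annotation release and strand setting are not given in the sources used here, so reads of genes that overlap a cathepsin gene on either strand could be counted with it. The counts of all 26 libraries equalled the joint table, and no pair of replicates agreed within sampling noise (chi-square per degree of freedom at least 4.77).

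The main test was that of edgeR 4.0.16 in R 4.3.3 (filterByExpr, TMM, glmQLFit and glmQLFTest), in 1 fit of all libraries with the 8 groups as levels, and Benjamini-Hochberg adjustment over 17990 genes. DESeq2 1.42.0 on all libraries or on the 2 groups compared, edgeR on the 2 groups, 2 other scalings (median-of-ratios size factors and library totals), 2 other filters (no filter, or a minimum of 10 counts in each library), a block for the replicate number, a term for replicate 1, replicate 1 left out and each library left out in turn were the alternatives. Same-numbered libraries of sub-SCI and +PBS-1w deviated together over all genes (r of 0.19 to 0.41, 3 pairs), the only neighbouring groups in the orders by level where every one of at least 3 pairs was over 0.1, so the numbers may pair them. Of the different-numbered pairs of these groups, sub-SCI replicate 1 with +PBS-1w replicate 2 reached 0.188, and the rest lay between -0.31 and 0.094. The pairing is from the same-numbered correlations, not from the labels. The order of the groups was also fitted with the block, without replicate 1 and without each library, chosen after seeing the data. Standard errors were taken as the log2 fold change over the square root of F, with 95% intervals. Tests were tried on simulated counts first. The 9 genes, the gene lists and the alternatives were chosen with earlier results of these data known. The genes named are the 9, the 3 genes most like each, the extremes of each list, and inhibitors and other cathepsins. Some results for single genes are not reported here. Ctso and some inhibitors and markers were not matched. Promoters came from RefSeq (GRCr8), a build other than that of the counts, so positions in the build of the counts are not given. Protein sequences and the study's other assays were not used here.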

Additional observations from a re-analysis of the deposited data

Results flagged for a closer look

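Each group of 4 libraries was searched for a library far from the other 3 in each cathepsin, which made 27 searches. Dixon's criterion marks about 1 in 20 such groups by chance, and it marked 2. Ctsd was lowest in +MSC-4w replicate 1, at 2267 CPM, where the other 3 libraries lay between 2716 and 2738 CPM. The gap to the nearest library was 0.957 of the range of the group. Ctsb was lowest in Intact replicate 2, at 544 CPM, where the other 3 lay between 569.5 and 573 CPM (gap 0.887 of the range). The latter gap is small beside the distance to any injured library. Without +MSC-4w replicate 1 the difference of Ctsd between +MSC and +PBS was -0.23 at 4 wpt on the log2 scale, and its average over 3 weeks was -0.38 with an adjusted p of 0.0513 in edgeR.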

How the results depend on the processing

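Over the 12 comparisons and 9 genes, 3788 of 3870 alternative values kept their direction and their side of the threshold, 27 lost the call, 27 gained it and 28 turned sign. The 28 lay in 3 comparisons, +MSC-2w against +PBS-2w, +MSC-4w against +PBS-4w and +PBS-4w against sub-SCI. The count of higher DEGs against Intact stayed at 8 or 9 in every alternative. The counts of DEGs were 1 for +MSC-2w against +PBS-2w with DESeq2 on the 2 groups, 1 in the average of the weeks with DESeq2 on all libraries, and 2 for +PBS-4w against sub-SCI with edgeR on the 2 groups. The counts at an adjusted p under 0.05 were 5, 6, 0, 2 and 3 at 1 wpt (DESeq2 on all libraries, DESeq2 and edgeR on the 2 groups, at least 10 counts in every library, and a term for replicate 1), 1 and 2 at 2 wpt (DESeq2 on all libraries and on the 2 groups), 0 at 4 wpt with edgeR on the 2 groups, and 5 in the average without replicate 1. With each library left out in turn they ranged from 0 to 4 at 1 wpt (4 without +PBS-4w replicate 1), 0 to 1 at 4 wpt and 4 to 8 in the average (4 without +PBS-2w replicate 1), and the DEGs of the average from 0 to 1 (1 without Intact replicate 1 or 4). The cause of these changes was not tested, apart from the smaller groups that some of them use. Shares of all genes called are not set beside these counts, so their changes need not be particular to the cathepsins.

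Without replicate 1 of every group, the difference at 2 wpt was 0.19 in Ctsd, 0.0081 in Ctsb, 0.043 in Ctss, 0.32 in Ctsz, 0.13 in Ctsh and 0.14 in Ctsa. With single libraries left out it ranged from -0.39 to 0.0076 in Ctsd (turned without +MSC-2w replicate 1), and from -0.66 to 0.16 in Ctsz and -0.69 to 0.11 in Ctsh (turned without +PBS-2w replicate 1). At 4 wpt Ctss ranged from -0.18 to 0.11, turning to 0.013 to 0.11 without +MSC-4w replicate 3 or 4 or +PBS-4w replicate 1 or 3 (0.045 and 0.022 between). From sub-SCI to +PBS-4w, without replicate 1 of every group, Ctss was -0.081, Ctsk 0.11 and Ctsh -0.037. Ctsk was 0.038 with library totals, and Ctsh -0.0020 with DESeq2 on all libraries, -0.0017 with median-of-ratios size factors and -0.0033 with no filter. With single libraries left out, Ctss ranged from -0.071 to 0.26, Ctsk from -0.43 to 0.15 and Ctsh from -0.061 to 0.10, turning in 2, 4 and 2 of these fits. Scaling by library totals moved the median of all genes in +PBS-4w against Intact to 0.13, a shift small beside the cathepsin changes in that comparison.

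With the replicate number as a block, the paired fit called 8 cathepsins in the average, 1 at 1 wpt, 0 at 2 wpt and 1 at 4 wpt at an adjusted p under 0.05, as without it, and over the 12 comparisons it changed 1 call, that of Ctsk in +MSC-2w against Intact at an adjusted p under 0.05 (log2 fold change 1.79). In none of the 11 comparisons of 2 groups used elsewhere were all same-numbered libraries correlated over 0.1. The correlations of their deviations lay between -0.16 and 0.32. Every one was above 0 in +PBS-1w against Intact (0.046 to 0.24), +MSC-1w against Intact (0.039 to 0.22) and +MSC-4w against +PBS-4w (0.016 to 0.23). In these 11 comparisons the numbers were not taken to pair the libraries. Between neighbours in the order of the groups, 12 pairs passed with the block and 15 without replicate 1 of every group, beside 10. These alternatives for the order were chosen after seeing the data. Group sizes of 2 to 4 limit what single weeks can show.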
